A study of Mus musculus musculus x Mus musculus castaneus with 12 samples.

Results

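The immediate early genes *Egr1*, *Fos*, *Fosb*, *Jun*, *Junb*, *Ier2* and *Ier3* and the ERK feedback genes *Dusp6*, *Spry2* and *Spry4* are 10 of the 24346 genes counted by RNA-seq in F1 hybrid mouse ES cells with and without *Kdm6a*. The genes were taken by symbol and were selected on the higher level of *Egr1* in the KO clones of the CB cross. Values of KO against wt in CB are therefore given as a description and without a test. The 12 samples came from hybrids of the strains BL6 and cast, with a BL6 mother in BC and a cast mother in CB. Each wt group, which was male BC, male CB or female BC, had 2 samples. The KO samples were all male, with 3 clones named ΔE1, ΔE3 and ΔP4 for BC and 3 named ΔE2.5, ΔE2.7 and ΔP2.1 for CB. ΔE clones lost part of exon 2 to part of exon 4 of *Kdm6a*, and ΔP clones its promoter and first exons. All cells were grown with LIF and serum on inactivated fibroblast feeders. Feeders were reduced before use by letting them attach to gelatin-coated dishes. Each KO sample is a clone. ΔE1 and ΔE3 have a common origin, by the off-target deletion on the X chromosome that they share, so the 3 BC clones stand for 2 separate edits. The CB line carries an actin-GFP transgene. Female and male BC wt are different lines. The authors call the male wt samples biological replicates, but nothing in the labels says whether the wt replicates were separate cultures. The p-values therefore measure the spread between these samples, which may be technical.

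Immediate early genes are transcribed within minutes of a stimulus without new protein synthesis. In growth factor signalling the kinases RAF, MEK and ERK phosphorylate the ETS factors that sit with SRF at the promoters of *Egr1* and *Fos*. ERK also induces its own inhibitors. DUSP6 is a phosphatase that dephosphorylates ERK in the cytoplasm, and SPRY2 and SPRY4 act upstream of it, at the level of the receptors and RAS. In mouse ES cells FGF4 is the main source of ERK activity, which primes the cells for differentiation.

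The guides define the deletions, and they are shown with the PAM in capitals. The left guide of the exonic deletion lies in exon 2 of *Kdm6a*, at chrX:18163390-18163409 of GRCm38, and the right one at the start of exon 4, at chrX:18208733-18208752. The guides of the promoter deletion lie upstream of the gene, at chrX:18160528-18160547, and in intron 2, at chrX:18164295-18164314.
ΔE Left: gaaacctcacgaacccgaaaAGG
ΔE Right: tagcattatctgcataccagAGG
ΔP Left: ggacactgcatgtttgatggAGG
ΔP Right: agctacatactccaaaggagAGG
The level of the edited gene checks the labels. In TPM (a level per base of transcript, scaled to the same total in every sample), *Kdm6a* was at 49.8 and 51.3 in male BC wt, against 11.6 in ΔE1, 13.5 in ΔE3 and 0.0441 in ΔP4. It was at 51.0 and 51.7 TPM in male CB wt, and at 2.07 in ΔE2.5, 7.28 in ΔE2.7 and 0.0364 in ΔP2.1. Every clone was below both wt samples of its cross, and the exonic clones kept fragments that were counted over the whole gene. Female BC wt was at 65.0 TPM in both samples.

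Short-lived immediate early mRNAs often carry AU-rich elements in the 3' UTR, built from the pentamer ATTTA in the DNA letters of the annotation. It was counted on the transcript strand of the GENCODE transcript used for the level of each gene, with overlapping copies counted apart. The whole 3' UTR held 5 copies in *Ier3*, 4 each in *Fos* and *Jun*, 2 each in *Egr1*, *Junb* and *Spry2*, 1 each in *Fosb* and *Dusp6*, 7 in the longer UTR of *Spry4* and 0 in *Ier2*. In the last 500 bases of the 3' UTR, at least 3 copies were found in 4 of the 9 genes whose UTR is that long, against 12.4% of 12000 genes with such a window. At least 1 copy was found in 7 of these 9, against 58.7% of all. The densest stretches of *Fos*, *Jun* and *Ier3* are shown with the pentamers in capitals, as the richest of the genes for which a stretch is printed. They lie at chr12:85477100-85477129 on the plus strand, chr4:95049207-95049236 on the minus strand and chr17:35822484-35822513 on the plus strand of GRCm38. No stability was measured, and a match is not a site of regulation.
Fos: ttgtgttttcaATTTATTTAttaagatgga
Jun: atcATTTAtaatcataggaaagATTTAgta
Ier3: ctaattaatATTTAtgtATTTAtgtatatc

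The zinc finger factor *Egr1*, on chromosome 18, ranged from 9.14 to 119 TPM. It was at 35.7 and 29.3 TPM in male BC wt, and at 31.7 in ΔE1, 24.2 in ΔE3 and 20.7 in ΔP4. Female BC wt was lower, at 9.74 and 9.14 TPM. Male CB wt was at 16.3 and 14.9 TPM, between the female and male BC lines, while the CB clones were at 74.1 in ΔE2.5, 119 in ΔE2.7 and 29.8 in ΔP2.1. The exonic CB clones thus lay above every other sample, and ΔP2.1 was above its own wt but within the range of male BC cells. These levels rest on 735 to 6995 fragments per sample.

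*Fos* (chr12:85473890-85477273, plus strand) encodes a partner of the JUN proteins in the dimeric factor AP-1. It was low in male BC cells, at 4.77 and 4.33 TPM in wt and at 5.57 in ΔE1, 5.996 in ΔE3 and 4.33 in ΔP4. Female BC wt was at 9.25 and 9.21 TPM and male CB wt at 6.40 and 6.42. The CB clones were at 15.0 in ΔE2.5, 37.1 in ΔE2.7 and 12.2 in ΔP2.1, each above the other 9 samples. *Fosb* (chr7:19302696-19310051, minus strand), a close relative of *Fos*, was at 1.43, 3.76 and 1.40 TPM in the CB clones, in the same order. It was at 1.005 TPM in ΔE1 and under 1 TPM in all other samples. It was counted with only 29 to 275 fragments per sample. In female BC wt it was under 1 TPM, at 0.224 and 0.360.

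*Jun* (chr4:95049034-95052222, minus strand) was the member that differed most between the male wt cells of the crosses. It was at 16.2 and 16.8 TPM in male BC wt, from 14.7 to 20.9 in the BC clones, and at 9.87 and 12.1 in female BC wt. Male CB wt was at 56.0 and 56.6 TPM and the CB clones at 42.6 in ΔE2.5, 49.7 in ΔE2.7 and 45.1 in ΔP2.1. The CB wt mean was 3.41 times that of BC wt, and the CB clones were all below their wt. *Junb* (chr8:84974484-84978718, minus strand) varied least by the ratio of the highest to the lowest sample, from 55.1 TPM in ΔE3 to 104 in ΔE2.7. It was at 73.9 and 71.6 in male BC wt, 59.3 and 77.3 in female BC wt, and 99.6 and 99.2 in male CB wt. Exons of *Jun* overlap *Junos* over 232 bases and those of *Junb* overlap *Prdx2* over 173 bases, each on the opposite strand. The libraries were not stranded, so fragments of these stretches cannot be told apart. *Prdx2* was at 383 to 767 TPM.

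*Ier2* (chr8:84661331-84662852, minus strand), a nuclear protein induced by serum and growth factors, was the most abundant member. It was at 480 and 513 TPM in male BC wt, and lower in the BC clones, at 324 in ΔE1, 396 in ΔE3 and 410 in ΔP4. Female BC wt was at 198 and 244 TPM and male CB wt at 257 and 253. The CB clones were at 271, 332 and 230 TPM in the order ΔE2.5, ΔE2.7 and ΔP2.1, on both sides of their wt. *Ier3* (chr17:35821684-35822923, plus strand), which encodes an ERK substrate linked to cell survival, ran the other way between the sexes. It was at 23.0 and 21.0 TPM in male BC wt, 18.2 to 24.0 in the BC clones and 51.9 and 57.7 in female BC wt. Male CB wt was at 38.3 and 38.0 TPM, and the CB clones were below, at 20.3 in ΔE2.5, 25.8 in ΔE2.7 and 33.5 in ΔP2.1.

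Of the feedback genes, *Dusp6* (chr10:99263231-99267489, plus strand) was at 132 and 127 TPM in male BC wt, and at 109 in ΔE1, 140 in ΔE3 and 103 in ΔP4. It was at 32.4 and 31.8 TPM in female BC wt, below every male sample. Male CB wt was highest at 191 and 188 TPM, and the CB clones were at 136, 112 and 113, all below both CB wt samples. *Spry2* (chr14:105891947-105896819, minus strand) was at 201 and 169 TPM in male BC wt, 165 to 228 in the BC clones and 181 and 177 in male CB wt. Its CB clones were at 210, 140 and 195 TPM, and female BC wt was lowest, at 66.9 and 64.6. *Spry4*, on chromosome 18, was at 145 and 115 TPM in male BC wt and 92.9 to 150 in the BC clones. It was at 69.8 and 63.7 TPM in female BC wt, at 58.7 and 58.6 in male CB wt, and at 88.5, 51.2 and 35.1 in ΔE2.5, ΔE2.7 and ΔP2.1. The CB clones therefore spread to both sides of wt for both Sprouty genes.

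**Figure D1:**
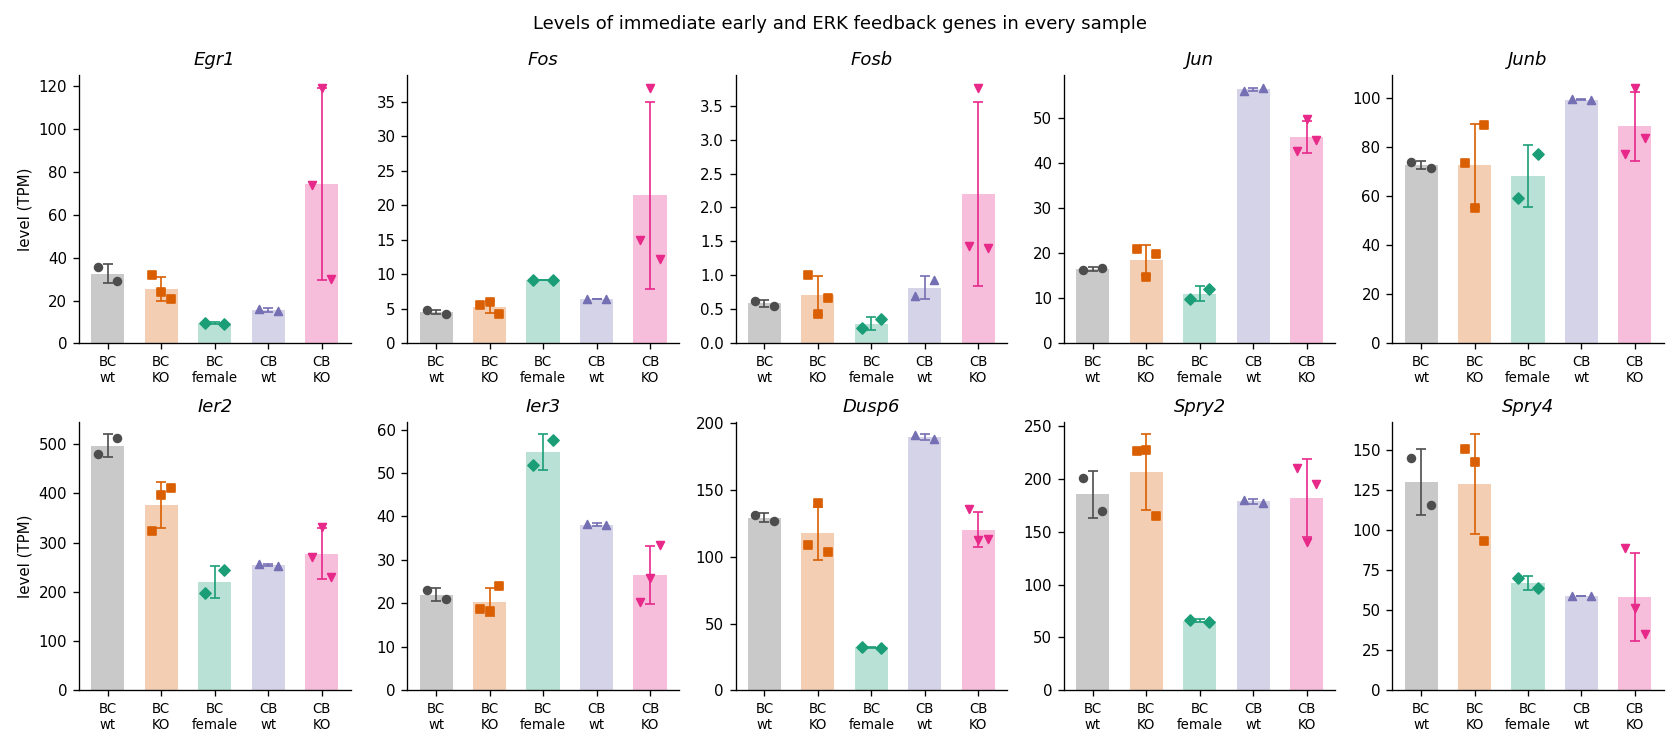
Levels (TPM) of the 10 genes, one panel per gene with its own scale starting at 0. Points are samples, bars group means and error bars the SD (n = 2 or 3). The CB KO points of *Egr1* range from 29.8 to 119 above a CB wt mean of 15.6, and *Dusp6* and *Spry2* are lowest in female BC wt.

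The effect of *Kdm6a* loss was tested in BC, whose values the rule for the genes does not name, although earlier results of these data were known when the genes were chosen. None of the 10 genes was called in these clones, and few genes were called at all. A gene was called when it changed by 1.5-fold or more with an adjusted p under 0.05 in edgeR's quasi-likelihood test, with p-values adjusted by the Benjamini-Hochberg method over all genes tested. By this rule 0.0290% of 13805 genes were called, or 4 genes. DESeq2 called 260 genes, 1.88%, and none of the 10. *Ier2* was the member with an unadjusted p under 0.05, as were 11.0% of all genes. Its log2 fold change was -0.44 (SE 0.12, unadjusted p = 0.0092, adjusted p = 0.35 by edgeR), or 1.36-fold lower. It was also the member whose groups did not overlap, with 3 of 3 clones below both wt samples, as for 10.9% of genes in this direction. The log2 fold change of *Egr1* was -0.38 (SE 0.21, adjusted p = 0.55 by edgeR), opposite in sign to its CB value, and ranged from -0.58 without ΔE1 to -0.24 without ΔP4. Single clones lay further from the wt mean, with *Egr1* 1.57-fold lower in ΔP4, *Ier2* 1.53-fold lower in ΔE1 and *Fosb* 1.69-fold higher in ΔE1. *Fos* was at 0.18 (SE 0.25), *Fosb* at 0.21 (SE 0.40), *Jun* at 0.11 (SE 0.17) and *Junb* at -0.05 (SE 0.18). *Fosb* passed the limit of 1 TPM for the test only through ΔE1, at 1.005 TPM, so its value is a description. *Ier3* was at -0.16 (SE 0.18), *Dusp6* at -0.18 (SE 0.17), *Spry2* at 0.12 (SE 0.19) and *Spry4* at -0.05 (SE 0.24). The median of all genes tested was 0.01.

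In CB the 3 clones lay above wt for *Egr1*, *Fos* and *Fosb* and below wt for *Jun*, *Ier3* and *Dusp6*. Relative to the wt mean, *Egr1* was 4.75-fold higher in ΔE2.5, 7.64-fold in ΔE2.7 and 1.91-fold in ΔP2.1. *Fos* was 2.34-fold, 5.78-fold and 1.91-fold higher in the same clones, and *Fosb* 1.74-fold, 4.58-fold and 1.71-fold. ΔE2.7 was the highest clone for all 3 genes. *Dusp6*, the phosphatase, was 1.40-fold lower in ΔE2.5, 1.69-fold in ΔE2.7 and 1.68-fold in ΔP2.1, while *Spry4* was 1.51-fold higher in ΔE2.5 and 1.67-fold lower in ΔP2.1. In ΔE2.7, the clone highest in *Egr1*, the 3 feedback genes were all below the wt mean. Fitted log2 fold changes over the 3 clones were 2.34 for *Egr1* (SE 0.59), 1.82 for *Fos* (SE 0.54), 1.5 for *Fosb* (SE 0.55), -0.58 for *Dusp6* (SE 0.10), -0.45 for *Ier3* (SE 0.22) and -0.22 for *Jun* (SE 0.09). *Junb*, *Ier2*, *Spry2* and *Spry4* lay between -0.09 and 0.20. All clones lay above wt for 14.7% and below wt for 32.3% of the 13801 genes tested, which are given as background only, since the genes were selected on *Egr1* in these clones. The edgeR test called 0% of the genes in this cross, although 20.5% had an unadjusted p under 0.05 and DESeq2 called 3.63%. Without ΔE2.7, that of *Egr1* was 1.8, of *Fos* 1.15 and of *Fosb* 0.85, and without ΔP2.1 they were 2.71, 2.11 and 1.74, and edgeR called 927 genes. Without ΔE2.5, *Spry4* was at -0.36 in place of 0.07. The value of *Ier2*, 0.20 over the 3 clones, was 0.039 without ΔE2.7 and 0.33 without ΔP2.1.

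**Figure D2:**
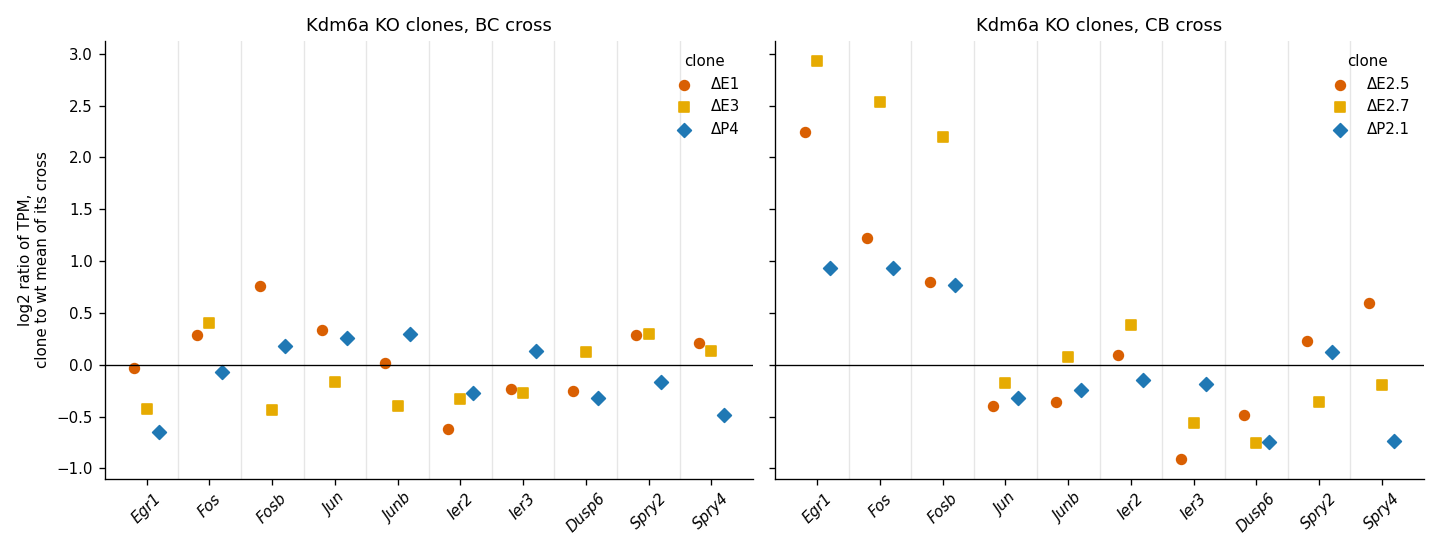
Log2 ratio of the TPM of each KO clone to the mean of the 2 wt samples of its cross, for BC (left) and CB (right). Points are single clones. In BC the *Egr1* points lie between -0.65 and -0.04, and in CB they lie at 0.93 or above.

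Female and male BC wt differed in most of these genes, and in both directions. Of the 9 genes above 1 TPM in a sample of this comparison, 8 were called by edgeR, where the background was also large, with 44.5% of 14049 genes called, 24.5% higher in female and 19.9% lower. DESeq2 called 8 of the 9 too, and 43.4% of all genes. The 3 feedback genes were lower in female cells. *Dusp6* fell by 2.07 on the log2 scale (SE 0.07, adjusted p = 1.9e-09 by edgeR), which is 4.19-fold, *Spry2* by 1.55 (SE 0.08, adjusted p = 4.5e-08) and *Spry4* by 1.02 (SE 0.10, adjusted p = 3e-06). Of the immediate early genes, *Egr1* was 3.58-fold lower (log2 -1.84, SE 0.10, adjusted p = 3.3e-08 by edgeR), *Ier2* 2.34-fold lower and *Jun* 1.56-fold lower. *Ier3* and *Fos* were higher, by 2.40-fold (adjusted p = 2.7e-07 by edgeR) and 1.95-fold (adjusted p = 7.3e-06). The median log2 difference to male BC wt of the 382 genes of chromosome 12, which holds *Fos*, was 0.40 and 0.35 in the female samples, and its part in the level of *Fos* was not tested. *Junb* did not pass (log2 -0.15, SE 0.11, adjusted p = 0.24 by edgeR), and *Fosb* was below the limit of 1 TPM for the test. With no filter on low values *Fosb* was called lower (log2 -1.11, adjusted p = 0.0011 by edgeR). *Egr1* and *Fos* thus moved oppositely between the sexes, whereas both were higher in the CB clones than in CB wt. *Jun* missed the 1.5-fold limit when female replicate 1 was left out (log2 -0.49), and *Fos* had an adjusted p of 0.078 by edgeR when all 12 samples entered the variance estimate. The comparison uses 1 line of each sex, so sex and line cannot be told apart.

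The other genes of the pathway were taken from lists of known members, and their counts stand beside the 44.5% of all genes. Of 19 other feedback regulators and ETS outputs, 14 were called lower in female cells and 0 were called higher. Their median log2 fold change was -0.79 against -0.01 for all genes. The 14 were *Dusp2*, *Dusp4*, *Dusp5*, *Dusp8*, *Dusp10* and *Dusp14*, phosphatases of MAP kinases, *Spred1*, *Spred2* and *Spred3*, inhibitors of RAS signalling, *Il17rd*, an inhibitor of FGF receptors, the ETS factors *Etv1* and *Etv4*, and *Phlda1* and *Ccnd1*. *Spred3* fell most, from 11.6 and 11.02 TPM in male to 2.30 and 2.32 in female cells (log2 -2.35, SE 0.09, adjusted p = 4.2e-09 by edgeR). *Dusp4* went from 69.5 and 65.9 TPM to 24.8 and 27.7, and *Spred1* from 63.9 and 65.6 to 26.1 and 24.5. *Etv5*, a further ETS target, did not follow, at 109 and 92.5 TPM in male and 135 and 130 in female cells. Nor did *Dusp1*, at 50.6 and 51.0 TPM in male and 73.2 and 79.4 in female cells. *Dusp9*, an X-linked phosphatase of ERK that was looked up after the other values were seen, was at 224 and 191 TPM in male BC wt and at 490 and 510 in female BC wt. *Dusp9* was at 199.6 TPM in ΔE1, 119 in ΔE3 and 158 in ΔP4, at 421 and 411 in CB wt, and below CB wt at 182 in ΔE2.5, 212 in ΔE2.7 and 249 in ΔP2.1.

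In the RAS-RAF-MEK-ERK core, 5 of 24 genes were called between the sexes, or 20.8%. *Araf* (log2 0.90, SE 0.08), an X-linked RAF kinase gene, was higher in female cells, as were *Rps6ka3* (1.12, SE 0.07), also X-linked, and *Rps6ka2* (0.67, SE 0.07), whose RSK kinases are activated by ERK, and the adaptor genes *Frs2* (-0.73, SE 0.07) and *Gab1* (-0.80, SE 0.08) lower. The MEK kinase gene *Map2k1*, at 181 and 190 TPM in male against 263 and 268 in female cells, did not reach 1.5-fold. Of 18 receptors and ligands tested, 6 were called higher and 4 lower, and 8 of these 10 encode receptors. *Fgf5*, an early marker of primed cells, went from 16.4 and 17.0 TPM to 0.538 and 0.453, *Fgfr2* from 28.6 and 26.3 to 5.66 and 5.90, and *Fgfr1* from 106 and 103 to 55.1 and 56.7. *Fgfr3*, *Fgfr4*, *Erbb3*, *Kit*, *Pdgfra* and *Pdgfrb* were higher, and *Fgf8* was lower. *Fgf4* was not called, at 197 and 213 TPM in male and 295 and 302 in female cells.

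Other immediate early genes did not share a direction. Of 30 tested, 7 were called higher and 11 lower in female cells. *Klf4*, also a pluripotency factor, was higher by a log2 value of 3.35 (SE 0.08, adjusted p = 3.1e-10 by edgeR), from 58.1 and 54.3 TPM to 590 and 598, and *Klf10*, *Maff*, *Sik1*, *Gadd45b*, *Nr4a1* and *Per1* were higher too. *Myc* went from 161 and 150 TPM to 56.6 and 57.3. *Ctgf*, from 83.8 and 84.6 to 15.9 and 15.4 TPM, and *Cyr61*, from 51.8 and 47.2 to 17.3 and 18.2, encode matrix proteins. *Fosl1*, *Nr4a2*, *Klf6*, *Ier5*, *Csrnp1*, *Gadd45g*, *Nfkbiz* and *Plk3* were lower. Of 15 cytoskeletal targets of SRF with MRTF, 10 were called lower and only *Tagln2* was called higher, with a median of -1.10. Those called lower were *Acta2*, *Actg1*, *Tagln*, *Cnn1*, *Cnn2*, *Myl9*, *Tpm1*, *Tpm4*, *Zyx* and *Fhl2*. *Srf* itself was lower (log2 -0.62, SE 0.07), and *Elk1*, an X-linked ETS cofactor, higher (1.14, SE 0.08). Of 11 heat shock genes 5 were called, with *Hspa1a*, *Hspa1b* and *Hspb1* higher and *Hspd1* and *Dnaja1* lower.

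**Figure D3:**
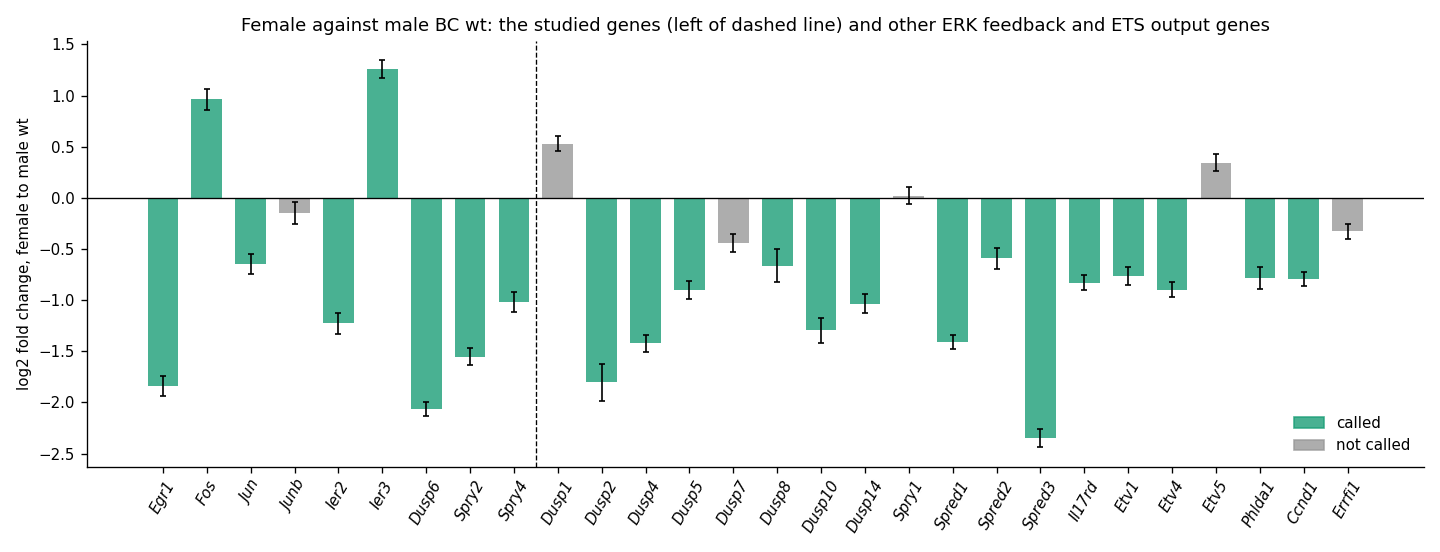
Log2 fold change of female to male BC wt with its SE (error bars, n = 2 and 2) from edgeR, for the 9 tested genes (left of the dashed line) and 19 other ERK feedback and ETS output genes. Green bars were called and grey bars were not. The 3 feedback genes and 14 of the 19 others are called below 0.

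The same lists gave no call in the BC clones by edgeR. Unadjusted p-values under 0.05 were found for 4 of 30 other immediate early genes, 4 of 19 feedback and ETS genes, 3 of 17 receptors and ligands, 1 of 24 core genes, 0 of 6 SRF cofactors, 1 of 15 cytoskeletal genes and 0 of 11 heat shock genes, beside 11.0% of all genes. The medians of these 7 lists lay between -0.26, for the heat shock genes, and 0.05. The genes of the feedback list with the largest changes were *Spred3* (log2 -0.65, SE 0.22, adjusted p = 0.38 by edgeR), *Dusp5* (-0.62, SE 0.20) and *Etv1* (-0.50, SE 0.19). Among immediate early genes *Atf3* was at 1.02 (SE 0.41), with 7.46 TPM in ΔE1, 21.3 in ΔE3 and 14.9 in ΔP4 against 6.74 and 7.23 in wt. *Klf4* was at 0.91 (SE 0.23, adjusted p = 0.34 by edgeR), with 96.5, 141 and 88.2 TPM against 58.1 and 54.3 in wt. *Ier5* was at -0.69 (SE 0.21). *Fgf5* was at 10.9, 3.03 and 11.2 TPM in the clones against 16.4 and 17.0 in wt.

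In the CB clones, 10 of 19 feedback and ETS genes lay below both wt samples in all 3 clones and 2 lay above, beside 32.3% and 14.7% of all genes. *Dusp14* was at 77.3 and 79.0 TPM in wt and at 29.95 in ΔE2.5, 43.6 in ΔE2.7 and 58.1 in ΔP2.1. *Phlda1* was at 56.3 and 57.0 TPM and then at 31.3 in ΔE2.5, 24.8 in ΔE2.7 and 50.0 in ΔP2.1, and *Errfi1*, an inhibitor of the EGF receptor, at 92.3 and 91.99 and then at 51.7, 64.7 and 59.6. Of 31 other immediate early genes, 5 lay above and 12 below, shares near those of all genes. *Klf2* was above, at 117 and 118 TPM in wt and at 156, 257 and 160 in the clones. *Gadd45b* was below, at 106 and 103 TPM against 35.8, 55.9 and 55.1, as was *Klf6*, at 126 in both wt samples against 84.8, 61.9 and 96.0. *Egr2*, a relative of *Egr1* in the lists, was at 0.860 and 0.805 TPM in wt and at 1.15, 1.43 and 0.675. *Egr3* was at 0.472 and 0.444 TPM in wt and at 0.738, 0.657 and 0.425. *Egr4* was at 1.39 and 1.19 TPM in wt and at 2.85, 2.17 and 0.806. Each of these low-level genes lay above both wt samples in the exonic clones and below them in ΔP2.1.

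Upstream genes in CB are set beside the same background. Of 18 receptors and ligands, 8 lay below and 3 above, and of 24 core genes 11 lay below and 3 above. *Erbb3* was at 33.2 and 32.3 TPM in CB wt and at 12.7, 20.1 and 14.4 in ΔE2.5, ΔE2.7 and ΔP2.1. *Fgf8* differed between the clones, at 83.6 and 87.1 TPM in wt, 102 in ΔE2.7, but 11.2 in ΔE2.5 and 9.63 in ΔP2.1. *Met* was at 11.8 and 11.9 TPM in wt and at 6.10, 4.65 and 7.95 in the clones. In the core the largest differences were those of *Sos2*, *Rps6ka3* and *Gab1*. *Sos2*, an exchange factor of RAS, was at 17.2 and 17.1 TPM in wt and at 11.5, 9.81 and 9.84. Of the SRF cofactors, *Elk4* was above wt, at 6.75 and 6.63 TPM and then 13.2, 10.4 and 8.15. *Elk4* and *Elk3* encode ETS factors that bind with SRF, and *Elk3* was at 13.1 TPM in both wt samples and at 7.36, 6.59 and 13.0. *Srf* was at 146 and 143 TPM and then 144, 140 and 144.

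Of the 15 cytoskeletal targets of SRF with MRTF, 11 lay below both CB wt samples in all 3 clones and 0 above, beside 32.3% and 14.7% of all genes. *Tagln* was at 1714 and 1662 TPM in CB wt and at 587, 917 and 1557 in the clones, and *Tpm1* at 1356 and 1351 and then at 561, 896 and 1190. *Acta2*, smooth muscle actin, was at 692 and 683 TPM in wt, 46.2 in ΔE2.5, 257 in ΔE2.7 and 960 in ΔP2.1. In CB wt *Acta2* is also the most abundant of 20 fibroblast markers, which were checked because cells were grown on feeders. The summed level of these markers was 827 and 810 TPM in CB wt, 98.4 in ΔE2.5, 327 in ΔE2.7 and 1139 in ΔP2.1. Without *Acta2* it was 135 and 127, 52.2, 70.5 and 179 TPM in the same order, and *Col1a1* was at 56.3 and 52.1, 7.54, 19.9 and 102. The fibroblast gene *Fap* was at 0 in both CB wt samples, ΔE2.5 and ΔP2.1, and *Prrx1* did not exceed 0.406 TPM in any sample. Of the 17 markers tested in CB, 6 lay below both wt samples in all 3 clones, a share near the 32.3% of all genes. In BC the sums were 101 and 96.1 TPM in male wt, 101 in ΔE1, 39.8 in ΔE3 and 55.6 in ΔP4, and 105 and 104 in female wt. Without *Acta2* they were 59.3 and 55.1, 42.6, 35.2, 41.0, and 101 and 100 TPM in the same order. Of the 13 markers tested for KO in BC, 5 lay below both male wt samples in all 3 clones, beside 10.9% of all genes. Their median log2 fold change was -0.61, and 0 were called by edgeR. Of 14 tested markers, 5 were called higher and 7 lower in female cells, beside 24.5% and 19.9% of all genes. The part of feeder cells in the CB differences was not tested, and fewer cells of a type and less RNA per cell cannot be told apart in bulk samples.

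Of 11 heat shock genes, which also rise when cells are dissociated, 3 lay above and 3 below both CB wt samples in all clones, beside 14.7% and 32.3% of all genes. *Hspa1b* was at 10.7 and 10.2 TPM in wt and at 8.34, 6.46 and 8.93. *Hspd1* was at 783 and 795 TPM and then 1331, 1066 and 831, and *Hspe1* at 429 and 423 and then 694, 567 and 439. The ES cell markers *Pou5f1*, at 2071 to 3787 TPM, *Sox2*, at 372 to 1292, and *Nanog*, at 195 to 926, were abundant in every sample. *Fut4* was the exception among 10 markers, at 0.683 to 4.43 TPM. In BC, 4 of the 10 lay above both male wt samples in all 3 clones, beside 2892 of 13805 genes, and 0 were called by edgeR. In female BC wt, where the feedback genes were lower, *Nanog*, *Zfp42*, *Esrrb* and *Dppa5a* were called higher and *Lin28a* and *Fut4* lower. These calls stand beside 24.5% of all genes called higher and 19.9% called lower.

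The SNPs between BL6 and cast show which allele the fragments came from. The BL6 share of the SNP fragments of *Egr1* was 49.2% in male BC wt 1, with a Wilson 95% interval from 44.4% to 53.9% over 421 fragments, and 48.2% in wt 2. It was 54.3% in ΔE1, 43.0% in ΔE3 (interval 37.0% to 49.3%, 244 fragments), 50.3% in ΔP4, and 60.8% (interval 52.2% to 68.7%, 130 fragments) and 56.4% in female BC wt. In CB it was 54.8% and 51.6% in wt, 48.2% in ΔE2.5, 51.2% in ΔE2.7 (interval 47.8% to 54.7%, 812 fragments) and 51.7% in ΔP2.1. The fragments of the higher *Egr1* in CB thus came from both alleles in near equal shares. In the CB clones *Fos* was at 49.4% in ΔE2.5, 49.6% in ΔE2.7 (246 fragments) and 58.8% in ΔP2.1. The shares of *Dusp6* ran from 41.0% to 51.0% and those of *Spry4* from 46.7% to 55.4%. *Jun*, on chromosome 4, was at 33.5% in ΔP2.1 (interval 27.8% to 39.7%, 239 fragments) and at 37.6% and 42.6% in female BC wt, against 44.3% to 53.9% in the other male samples. The 19 genes within 5 Mb of *Jun* had a median share of 39.7% in ΔP2.1, 41.0% and 41.5% in female BC wt, and 49.1% to 54.5% elsewhere. *Fosb* had 2 to 25 SNP fragments per sample, too few for a share, and *Ier3* had 0. Intervals cover counting error only.

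*Junb* and *Ier2*, both on chromosome 8, lay further from parity in some samples, and their neighbours moved with them. The BL6 share of *Ier2* was 65.99% and 64.3% in male BC wt and 65.1% in ΔP4, but 49.8% in ΔE1 and 46.6% in ΔE3. It was 17.2% and 17.7% in female BC wt, 49.9% to 52.9% in CB wt and the exonic CB clones, and 17.4% in ΔP2.1 (interval 14.3% to 21.0%). *Junb* followed, at 59.3% in both male BC wt samples, 63.3% in ΔP4, 47.4% in ΔE1, 48.1% in ΔE3, 15.5% and 15.8% in female BC wt and 19.1% in ΔP2.1. Over the 66 genes within 5 Mb of *Ier2*, the median share was 68.2% and 68.9% in male BC wt, 69.3% in ΔP4, 52.9% in ΔE1 and 52.8% in ΔE3, 28.2% and 27.6% in female BC wt and 28.0% in ΔP2.1. The total level of chromosome 8 moved as well. Relative to male BC wt, the median log2 difference of 573 genes of chromosome 8 was -0.46 in ΔE1, -0.50 in ΔE3 and 0.10 in ΔP4, -0.43 and -0.44 in female BC wt, and -0.40 and -0.42 in male CB wt. Male BC wt and ΔP4 thus stood above the other BC samples and CB wt. These values stand beside the lower *Ier2* of ΔE1 and ΔE3, where the log2 ratio to wt was -0.62 and -0.33, and of female cells. In ΔP4 the log2 ratio of *Ier2* was -0.28. The log2 ratios of *Junb* were 0.018 in ΔE1, -0.40 in ΔE3 and 0.29 in ΔP4. *Junb* was not called in female cells, and its CB wt mean was 1.37 times that of BC wt. The part of the chromosome in the levels of *Ier2* and *Junb* was not tested.

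*Spry2*, on chromosome 14, had a further pattern. Its BL6 share was 57.4% and 57.7% in male BC wt and 51.9% to 53.4% in the BC clones. It was 11.5% and 11.97% in female BC wt, 11.1% and 10.3% in CB wt, 13.1% in ΔE2.5 and 10.7% in ΔE2.7, but 54.1% in ΔP2.1 (interval 50.9% to 57.3%, 948 fragments). The 13 genes within 5 Mb had median shares of 41.0% to 51.3% in all 12 samples, so the low shares of *Spry2* were not those of the surrounding genes. The total level of *Spry2* in ΔP2.1, 195 TPM, lay near the 181 and 177 TPM of CB wt.

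**Figure D4:**
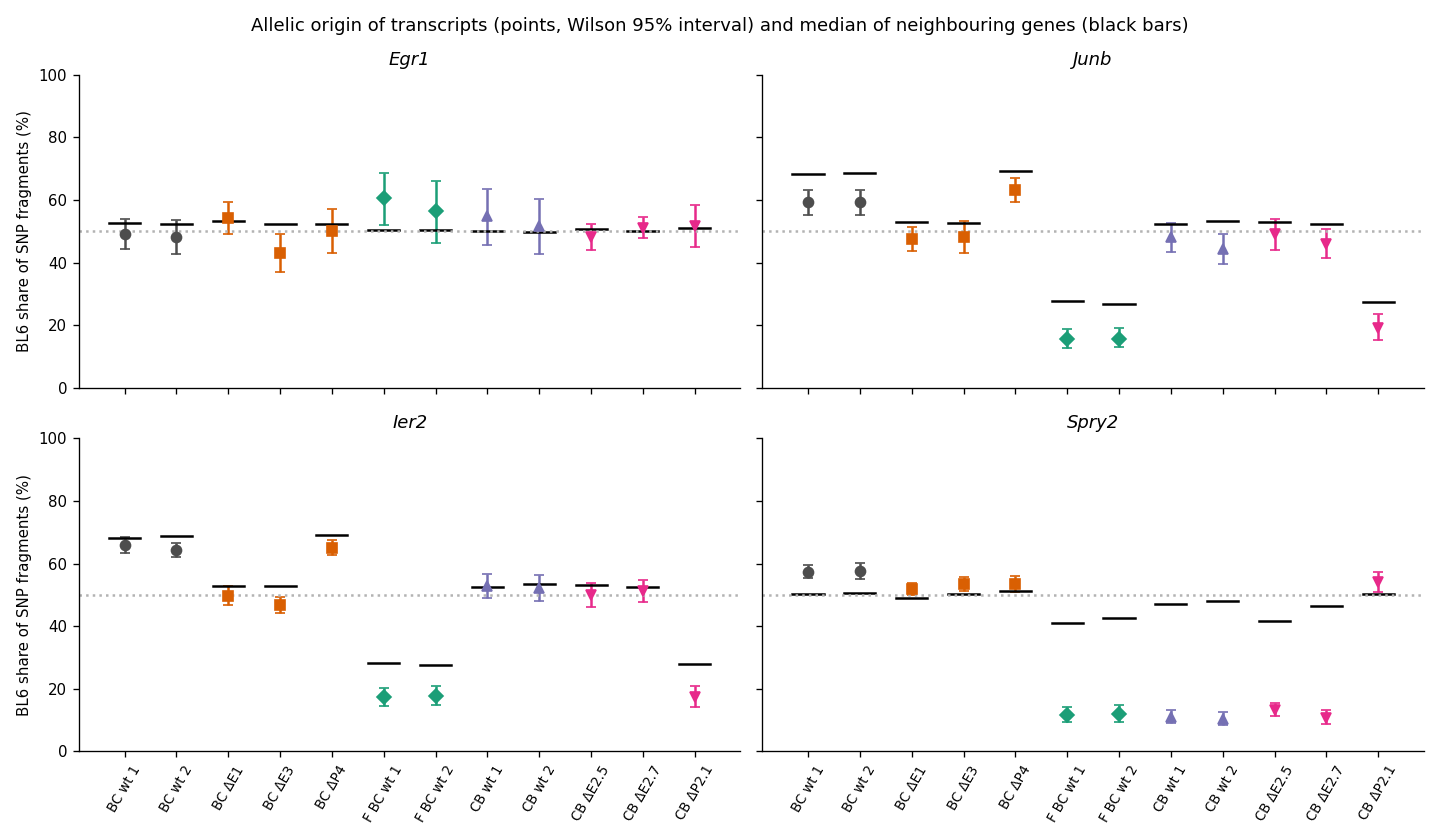
BL6 share (%) of SNP fragments in every sample for *Egr1*, *Junb*, *Ier2* and *Spry2*, with Wilson 95% intervals. Black bars are the median share of the genes within 5 Mb, and the dotted line marks equal shares. *Junb* and *Ier2* follow their neighbours, while *Spry2* lies at 10.3% to 13.1% in 6 samples whose neighbours are at 41.0% to 48.0%.

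Whether KO changed the 2 alleles differently was tested on the SNP fragments of 8 members, with samples as blocks. In BC 0 of 8 were called by edgeR, beside 0.0245% of 12246 genes. *Spry2* (log2 difference of the cast over the BL6 effect 0.24, SE 0.08) and *Ier2* (0.64, SE 0.27) had an unadjusted p under 0.05, as did 5.01% of genes, and an adjusted p of 0.88 by edgeR. Without ΔP4, the clone that kept the wt shares on chromosome 8, *Ier2* (1.00) and *Junb* (0.66) were called, together with 541 genes in all. In CB 0 of 8 were called, none with an unadjusted p under 0.05, beside 0% of 11669 genes by edgeR, of which 3.09% had an unadjusted p under 0.05. The value of *Egr1* was -0.08 (SE 0.20) in BC and 0.16 (SE 0.15) in CB. That of *Spry2* in CB was -1.20 (SE 1.10), with a spread set by ΔP2.1, and without this clone it was -0.18.

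The genes most like *Egr1* across samples were sought by Pearson's r on log2(TPM + 1) among genes of at least 5 TPM on average. The points share libraries, and groups rather than single samples set the pattern, so that r is a description. Over all 12 samples they were *Armc9* (r 0.94), *Tchp* (0.92), *Rpl3* (0.92), *Tsen15* (0.91) and *Zc3h11a* (0.90). *Rpl3* has near-identical copies in the genome, so its counts are uncertain. Over the 10 male samples, after subtraction of the mean of each cross, they were *Bcs1l* (r 0.97), *Rrp15*, *Cops7b*, *Cpne5* and *Mcm3*. None of these is an immediate early gene, and of the 5 only *Cpne5* is not on chromosome 1. Of the 100 genes most like *Egr1* in the male samples, 50 were on chromosome 1, against 5.42% of all genes compared. This count is a description only, as the order rests on the *Egr1* values of the CB clones, on which the genes were selected. Any genes that rise in both exonic CB clones rank high in it. The median log2 difference of 586 genes of chromosome 1 to CB wt was 0.43 in ΔE2.5, 0.37 in ΔE2.7 and -0.13 in ΔP2.1, so the CB clones highest in *Egr1* were those with more chromosome 1 transcripts. Relative to male BC wt, the median was -0.54 and -0.57 in female BC wt and -0.40 and -0.41 in male CB wt, where *Egr1* was lower too. In the BC clones it was 0.015 in ΔE1, 0.017 in ΔE3 and 0.12 in ΔP4. *Egr1* was lowest of the male BC samples in ΔP4, at 20.7 TPM, and was at 31.7 in ΔE1 and 24.2 in ΔE3. The part of chromosome 1 in the level of *Egr1* was not tested. *Egr1* itself is on chromosome 18, where the medians to CB wt were -0.05 in ΔE2.5, -0.14 in ΔE2.7 and -0.06 in ΔP2.1. Among the members, *Fos* ranked 32 (r 0.92) in the male samples, *Ier2* had an r of 0.48, *Spry2* of -0.18, *Dusp6* of -0.65 and *Ier3* of -0.79. Over all 12 samples *Fos* ranked 1134 (r 0.57), and r was 0.36 for *Ier2*, 0.52 for *Spry2*, 0.46 for *Dusp6* and -0.67 for *Ier3*. *Mcm3*, a subunit of the replicative helicase, was at 471 and 462 TPM in CB wt, 843 in ΔE2.5, 868 in ΔE2.7 and 561 in ΔP2.1. *Cpne5* was at 2.40 and 2.17 TPM in CB wt and at 7.83, 18.9 and 3.41 in the clones, which follows the order of *Egr1*.

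**Figure D5:**
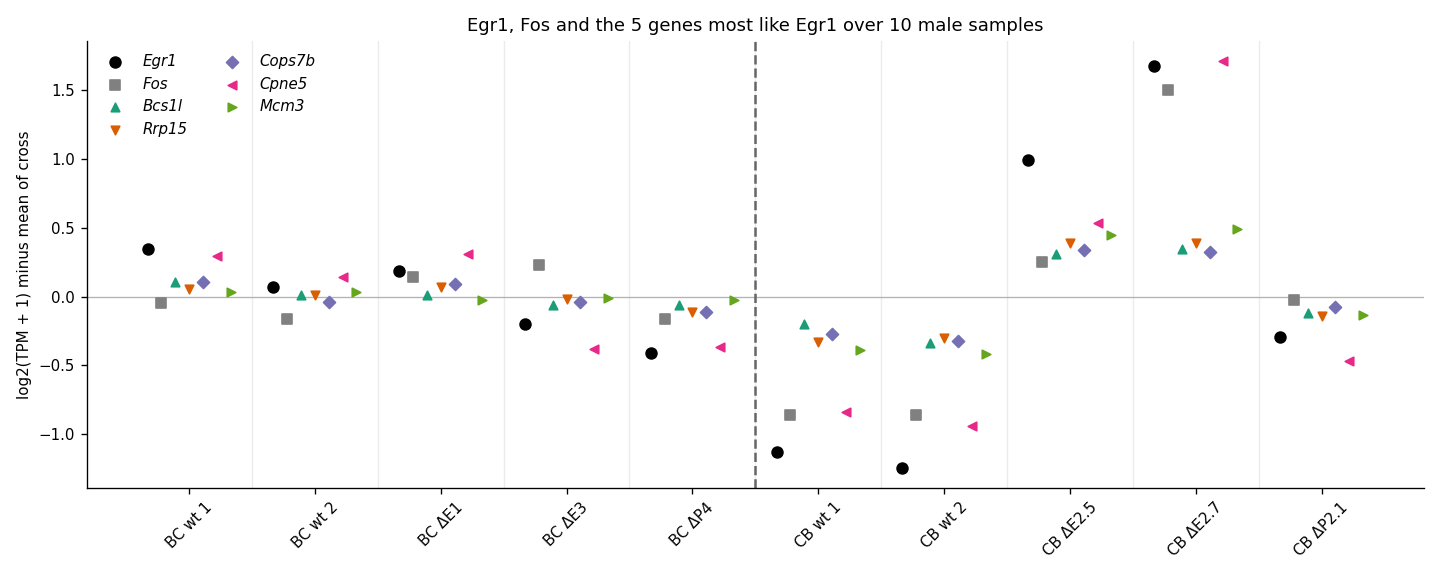
Levels of *Egr1*, *Fos* and the 5 genes most like *Egr1* in the 10 male samples, as log2(TPM + 1) minus the mean of the cross. Points are samples, and the dashed line separates BC from CB. The genes are highest in the exonic CB clones, where *Egr1* was at 74.1 and 119 TPM, and lowest in CB wt.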

How the data were processed

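RNA-seq values of 12 samples were used. The authors mapped 75 bp single-end reads of unstranded libraries with TopHat and Bowtie2 2.2.5 to mm10 and a pseudo-cast genome, kept a mapping quality of at least 30, and deposited estimated counts of fragments per gene, not normalized. The counting tool is not given in the sources used here. Diploid fragments were 49975599 to 89070402 per sample, and SNP fragments of either allele 7.84% to 10.1% of these. TPM was computed here with the longest GENCODE vM21 transcript that has a RefSeq match (median of 2284 bp for 1036 genes without annotation). Rounded counts of genes above 1 TPM in a sample of the comparison were tested with edgeR 4.0.16 (TMM, quasi-likelihood) in R 4.3.3. The tests other than KO against wt in CB were also run on simulated data, and the outcome is not given here. The comparison of KO against wt in BC left out *Pdha1*, *Map3k15* and *Sh3kbp1*, which lie in the off-target deletion of ΔE1 and ΔE3. Allele tests needed 10 SNP fragments per sample. DESeq2 1.42.0, other filters, normalizations and variance estimates, and leaving out each sample were alternatives. Wt replicates differed beyond counting noise (median chi-square per gene 2.78, 1.88 and 0.70 in male BC, female BC and CB, where counting alone gives 0.455, and mean 32.8, 15.9 and 26.8, where it gives 1). The members and gene lists were chosen with earlier results of these data known. All members are named, and of other lists the called genes or the 3 largest changes at 5 TPM or more. Some further genes were named outside this rule, such as *Egr2*, *Egr3*, *Egr4*, *Etv5*, *Dusp1*, *Map2k1*, *Fgf4*, *Fap* and *Prrx1*. The 5 genes with the highest r with *Egr1* were also named.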

Additional observations from a re-analysis of the deposited data

How the results depend on the processing

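Of the 10 genes, the BC comparison called 0 under each of 12 alternatives, of which 2 did not test *Fosb*. All genes called in BC went from 4 to 260 with DESeq2 and 54 with all 12 samples in the variance estimate, and ranged from 1 to 4 with each sample left out. In CB they went from 0 to 501, 54 and 0 to 927. The cause was not tested. With ΔE1 and ΔE3 averaged, *Junb* in BC was at 0.013 on the log2 scale. With each sample left out, the BC values of *Egr1* ranged from -0.58 to -0.24, of *Fos* from 0.070 to 0.33, of *Fosb* from 0.13 to 0.45, of *Ier3* from -0.27 to -0.10, of *Dusp6* from -0.34 to -0.071, of *Spry2* from 0.0043 to 0.28, of *Jun* from -0.00012 to 0.24, of *Junb* from -0.19 to 0.10 and of *Spry4* from -0.20 to 0.15, the CB values of *Ier3* from -0.65 to -0.29, of *Junb* from -0.24 to 0.0013, of *Spry2* from -0.017 to 0.24 and of *Spry4* from -0.36 to 0.33, and the female value of *Junb* ranged from -0.35 to 0.041. The difference between alleles ranged in BC from -0.23 to 0.14 for *Egr1*, -0.14 to 0.033 for *Jun* and -0.21 to 0.0081 for *Spry4*, with 0 to 2 of the 8 members called and 0 to 541 genes. In CB it ranged from 0.059 to 0.24 for *Egr1*, from -0.052 to 0.36 for *Jun* and from -0.078 to 0.87 for *Junb*. A lone sample left in a group was assumed to vary like the others. Female and male wt share replicate numbers without a stated pairing. Their deviations correlated at 0.15 over 2 pairs, and with the replicate block 8 members and 6283 genes were called. The union of exons as gene length gave 738 TPM for *Ier2* and 24.5 for *Jun* in male BC wt, in place of 497 and 16.5. The other alternatives kept the direction of the values and the side of the threshold, except *Fos* and *Jun* in female cells, as given above, and *Fosb*, which is tested there only with no filter. Allele shares are limited by depth, most for *Fosb* and *Fos*.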
